A study of Arabidopsis thaliana with 3 samples.

Results

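N6-methyladenosine (m6A), a methyl mark on adenosines inside mRNA, was examined in 9 genes of the Arabidopsis circadian clock. They are the morning MYB genes CCA1 (AT2G46830), LHY (AT1G01060), RVE1 (AT5G17300), RVE2 (AT5G37260), RVE4 (AT5G02840), RVE6 (AT5G52660) and RVE8 (AT3G09600), and the cofactor genes LNK1 (AT5G64170) and LNK2 (AT3G54500). Sites were taken by gene name from a transcriptome-wide list, which held 31 sites in 5 of the 9 genes, of 120269 sites in all. RVE4 had 17 of them, RVE6 had 9, RVE8 had 3, and LHY and RVE1 had 1 each, whereas none was listed for CCA1, RVE2, LNK1 or LNK2.

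The plants were wild-type Col-0 seedlings, 7 days old, raised on 1/2 Murashige and Skoog plates at 22 °C under 16 h of daily light. The 3 biological replicates form 1 group, without a treatment or a mutant. The hour of harvest was not given in the sources used here, and polyadenylated RNA came from whole seedlings, so cells and tissues are mixed. In CAM-seq, a chemical deamination turns unmodified adenosine into inosine, which is read as G, and leaves m6A to be read as A. The level of a site is the percentage of its reads that stayed A, and its depth is the number of all reads covering it. Each site carried 1 depth and 1 unconverted count with no sample name, which were read as the pool of the replicates. The intervals given are therefore Wilson 95% intervals of pooled reads, which cover counting error only, and no spread between replicates could be computed. A site was listed only at a depth of at least 20 reads and with a binomial p-value below 0.001 against a 1% background, so a missing site may be unmethylated or too shallow, and these cannot be told apart here.

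The circadian clock of plants is a set of interlocked transcription loops. CCA1 and LHY are closely related single-MYB repressors whose transcripts peak around dawn and which hold down evening genes such as TOC1. RVE4, RVE6 and RVE8 belong to the same protein family but activate genes that carry the evening element in their promoters, and they do so with the coactivators LNK1 and LNK2, which have no DNA-binding domain of their own. RVE1 connects the clock with auxin production, and RVE2 is also known as CIR1. In plant mRNA, m6A is found mainly near the stop codon and in the 3′ UTR.

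The sequences around the 6 sites with a level above 50%, and around the single RVE1 site, are shown because the results turn on them. Each is 21 bases of the transcribed strand, 5′ to 3′, from the RefSeq genome (TAIR10.1), and the capitals mark the 3-letter motif whose middle A is the site.
LHY, chr1:33795-33815, minus strand: tgtgtatgcTACttgtggtct
RVE1, chr5:5690372-5690392, minus strand: tattcattcGACtttctaagt
RVE4, chr5:651868-651888, plus strand: ttgttacttAACtcggaagtg
RVE4, chr5:651888-651908, plus strand: gagatacatAACtctgttgta
RVE6, chr5:21359236-21359256, minus strand: tgggttaagGATggtatatgt
RVE6, chr5:21359190-21359210, minus strand: tcaagtttaAACatatgtatc
RVE8, chr3:2948840-2948860, plus strand: tctcgtcatAACtttttgttc
The RVE4 sites and the RVE8 site share the 5 letters UAACU in RNA. The other 3 sites above 50% have CUACU in LHY, and GGAUG and AAACA in RVE6. RAC motifs, where R is A or G, are the classical m6A context, and 4 of the 6 sites above 50% had one, each time AAC.

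All 31 sites lay in the 3′ UTR and all 31 in the last exon of the transcript with the longest coding sequence. The last exon also held 98.0% of the sites of the other clock genes and 96.9% of the placed sites of the whole table, so this is near the background. The map of sites shows that most member sites sat far downstream in the 3′ UTR. Only 4 of 31 sites (12.9%, interval 5.13% to 28.9%) fell between 20 nt before and 180 nt after the last base of the stop codon, against 73 of 98 sites (74.5%) in 14 other clock genes and 72.4% of the placed sites of the whole table. The 4 sites were the RVE1 site and 3 of the 9 RVE6 sites. Without RVE4, which supplied 17 of the sites, the share was 4 of 14 sites (28.6%). Sites of 1 gene share transcripts and reads, so these shares are given as a description without a test.

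**Figure D1:**
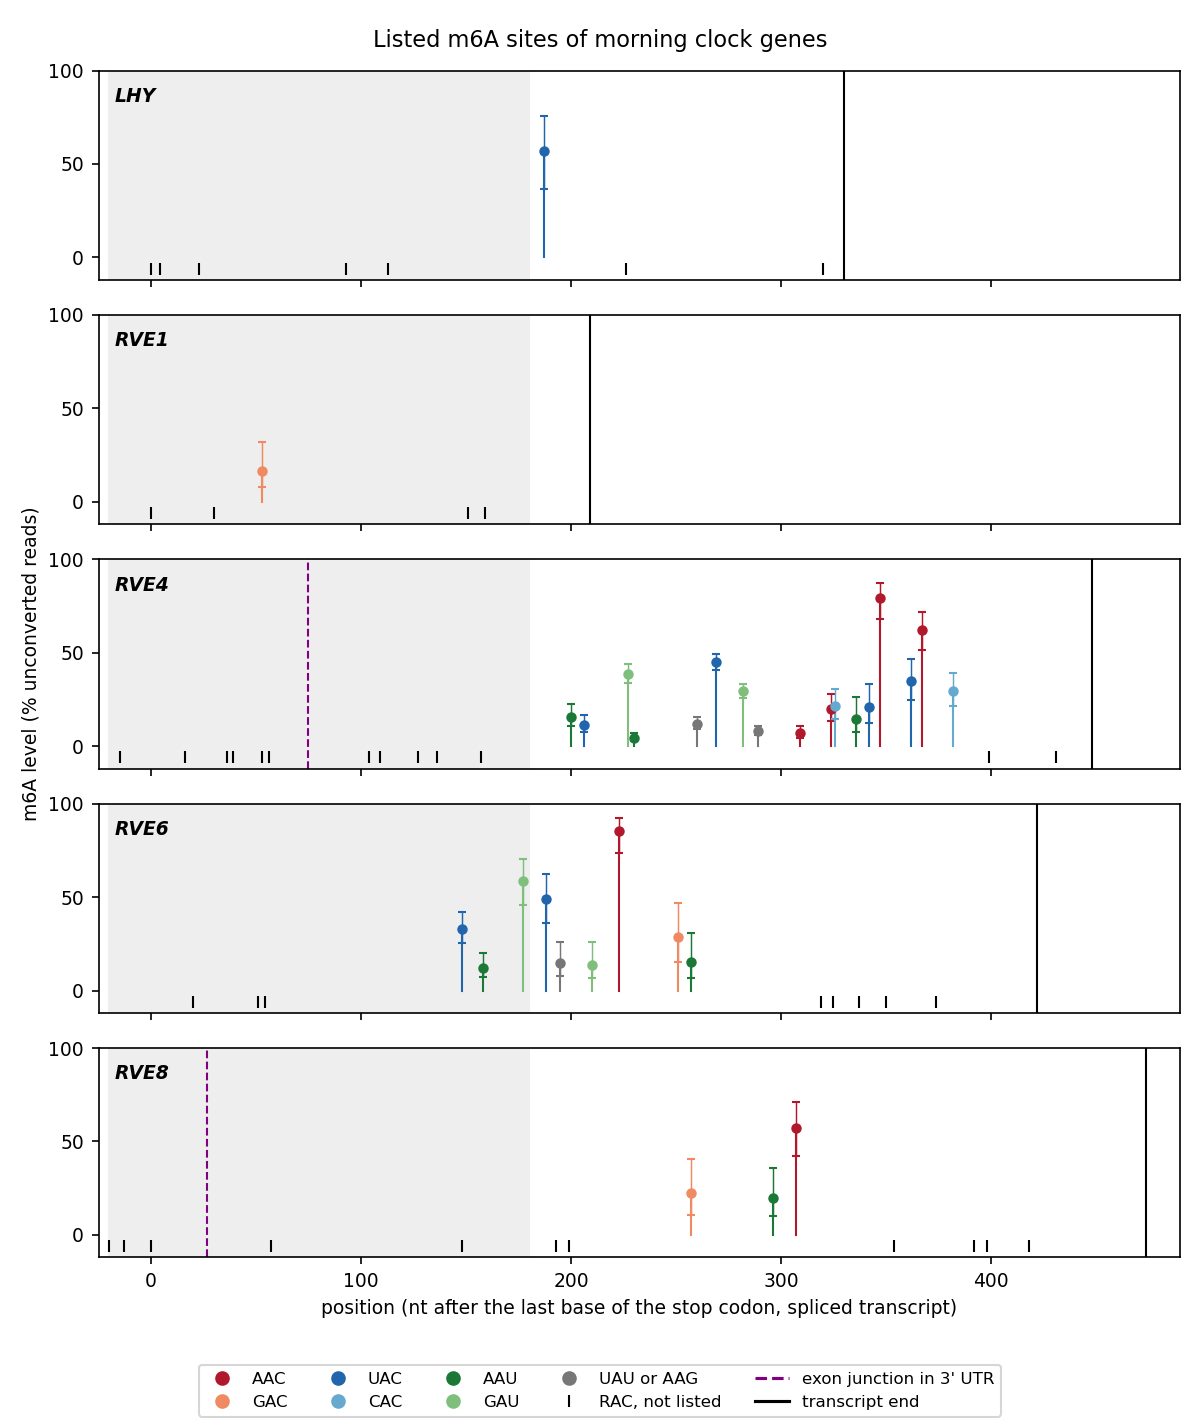
The m6A level (percent of unconverted reads, linear axis) of each listed site is plotted against its distance in nt from the last base of the stop codon on the spliced transcript, for the 5 genes with listed sites. Bars are Wilson 95% intervals of pooled reads, the grey band is the window from -20 to +180 nt, ticks under 0 mark RAC adenosines that were not listed, and 27 of the 31 sites lie right of the band.

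RVE4 and RVE8 have an intron inside the 3′ UTR of the transcript used, which puts most of the UTR into a separate last exon. Among the other genes with such an intron, 36.8% of the 3′ UTR sites lay in the window and 63.2% beyond +180 nt. RVE6 and LHY have no such intron in the transcript used. Beyond +180 nt lay 6 of the 9 RVE6 sites, and the LHY site at +187 nt was just past this limit. The part of the intron in the placement of sites was not tested. The unlisted adenosines were counted as well. Within the window, 1 of 29 RAC adenosines of the 5 genes was listed (3.45%), against 47.8% in all other genes with listed sites and 23.2% in those with a 3′ UTR intron. Beyond +180 nt, 8 of 23 were listed (34.8%), against 19.1% in all other genes and 23.0% in those with a 3′ UTR intron. By gene, these were 4 of 6 in RVE4, 2 of 7 in RVE6, 2 of 8 in RVE8 and 0 of 2 in LHY, so the higher share came mostly from RVE4. In RVE4, 10 RAC adenosines of the 3′ UTR between +16 and +157 nt went unlisted before the first site at +200 nt. Depth at unlisted adenosines was not analysed, and whether these stretches were covered as well as the listed ones was not tested.

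RVE4, an activator of evening-element genes, carried the longest run of sites. Its 17 sites covered 183 nt from +200 to +382 nt, with gaps of 2 to 30 nt and a median gap of 9.5 nt, and 95% of all genes with listed sites had fewer. The mean level was 26.7% ± 20.3 (SD over sites), with a range of 4.49% to 79.1% and a median depth of 146 reads. The highest was the AAC site at position 651878 of chromosome 5, +347 nt, where 53 of 67 reads stayed A (79.1%, interval 67.9% to 87.1%). The AAC site 20 nt further on, at +367 nt, had 62.1% (51.6% to 71.5%) over 87 reads. The 2 intervals overlap, which by itself does not settle the order of these neighbours, and their difference was not tested.

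Within the stretch from its first to its last site, RVE4 had 47 adenosines, of which 17 were listed. Of the 10 adenosines followed by C, all 10 were listed, and of the 18 in RAC, YAC or RAU motifs (Y is C or U), 15 were. Nearly every adenosine in these motifs was thus listed here, at levels that ranged widely. The stretch begins and ends at listed sites, which by itself raises these shares. No such share was computed for genes other than the members. The part with the most crowded sites is 28 nt long, chr5:651853-651880 on the plus strand, and its capitals mark 5 listed adenosines between +324 and +347 nt.
RVE4 crowded sites: taAcAcagtagcaaAttgttActtaAct
Along this sequence the levels were 19.6%, 21.6%, 14.5%, 21.1% and 79.1%, so the last site stood far above the 4 before it, and its interval does not reach theirs. The authors removed reads with more than 3 unconverted adenosines, or with too large a share of their adenosines unconverted. This filter can lower levels where sites crowd. Its part in the RVE4 values was not tested.

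The depth over RVE4 was uneven, and its sites were divided at the largest fold drop in depth between neighbours. The depths of the parts therefore differ by construction. The 9 sites from +200 to +309 nt had 146 to 581 reads and a mean level of 19.1% ± 14.8 (SD over sites), with 1 RAC site. The 8 sites from +324 to +382 nt had 55 to 107 reads and a mean of 35.3% ± 23.1, with 3 RAC sites. Depth, motif and distance thus changed together along the UTR and their parts cannot be told apart. The upstream sites were the more precisely measured, and some were far from low. The UAC site at +269 nt had 45.0% (40.8% to 49.2%) over 527 reads, the GAU site at +227 nt had 38.9% (33.9% to 44.1%) over 350 reads, and the GAU site at +282 nt had 29.3% (25.7% to 33.1%) over 581 reads. These 3 sites are all in YAC or RAU motifs. The only RAC site among the 9, an AAC at +309 nt, had 7.12% (4.60% to 10.8%) over 267 reads, lower than each of the 3 with no overlap of intervals.

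**Figure D2:**
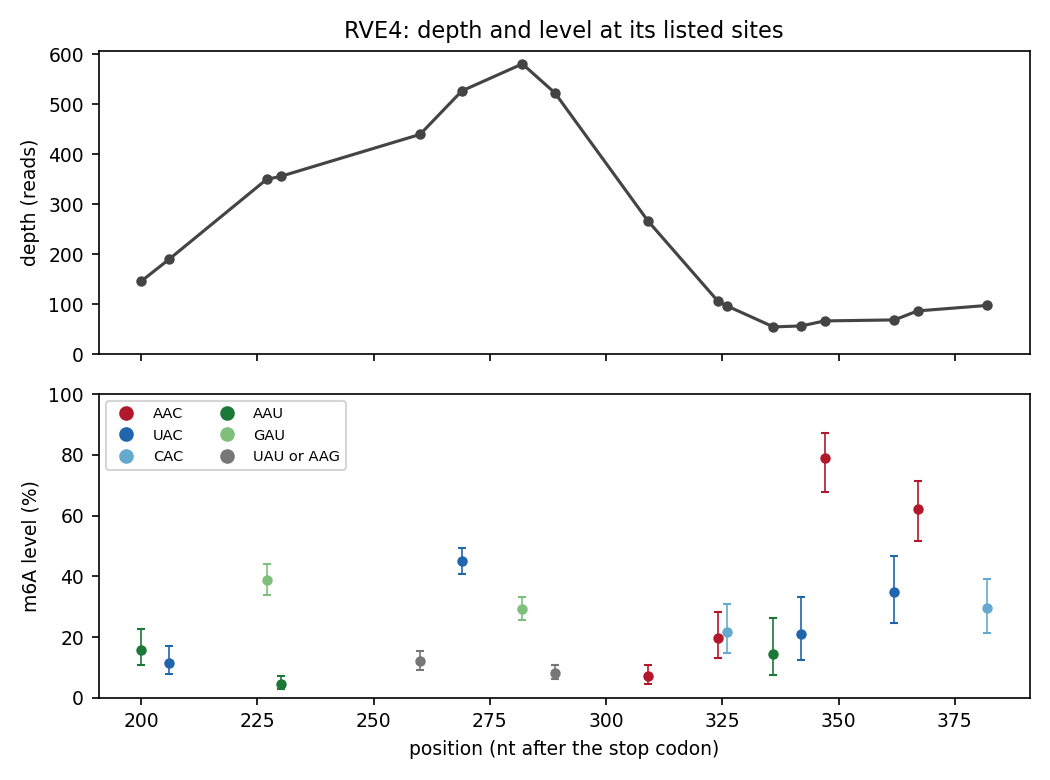
The upper panel shows the depth (reads) and the lower panel the m6A level (percent, with Wilson 95% intervals) of the 17 RVE4 sites against distance from the stop codon in nt, with colours for the 3-letter motif. Depth peaks at 581 reads at +282 nt and is at most 107 reads from +324 nt on, where both levels above 50% lie.

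The annotation adds a limit for RVE4. The sites lie on 2 of its 5 annotated transcripts. The other 3 end upstream of the first site, so the levels describe only mRNAs with the distal last exon.

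RVE6, a relative of RVE4 and RVE8 with the same activating role, had 9 sites within 110 nt, from +148 to +257 nt, on both of its transcripts. Their mean level was 34.4% ± 25.3 (SD over sites), with a range of 12.1% to 85.2% and a median depth of 54 reads. The AAC site at position 21359200 of chromosome 5, +223 nt, had the highest level of all members, with 46 of 54 reads unconverted (85.2%, interval 73.4% to 92.3%). The GAU site at position 21359246, +177 nt, had 58.6% (45.8% to 70.4%) over 58 reads. A UAC site 11 nt downstream of it had 49.1% (36.1% to 62.1%) over 53 reads. The 2 intervals overlap widely. The only GAC site of RVE6, at +251 nt, had 28.6% (15.3% to 47.1%) over 28 reads, and the other 5 sites had 12.1% to 33.1%. In the stretch between the first and last site, 8 of 9 adenosines in RAC, YAC or RAU motifs were listed, and all 4 adenosines followed by C.

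RVE8, a MYB activator that binds the evening element, had 3 sites at low depth, at +257, +296 and +307 nt in the last exon. The AAC site at position 2948850 of chromosome 3 had 24 of 42 reads unconverted (57.1%, interval 42.2% to 70.9%). The GAC site had 22.2% (10.6% to 40.8%) over 27 reads and at the AAU site 7 of 35 reads were unconverted (interval 10.04% to 35.9%). Their intervals lie below that of the AAC site. In the stretch between the first and last site of RVE8, 3 of 6 adenosines in RAC, YAC or RAU motifs were listed, and 2 of 5 adenosines followed by C. All 9 annotated transcripts contain the 3 sites. These transcripts differ in their stop codon and in whether the intron in the 3′ UTR is removed, and the distance of the AAC site from the stop codon ranges over them from 307 to 650 nt.

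LHY had a single site, a UAC at position 33805 of chromosome 1, +187 nt, where 12 of 21 reads stayed A (57.1%, interval 36.5% to 75.5%). At this depth a level under 19.0% could not have been listed, and only 0.658% of genes with listed sites had a lower median depth. The 6 RAC adenosines of the LHY 3′ UTR were not listed. The site is on 4 of the 8 LHY transcripts, the others ending before it or splicing it out. RVE1 had a single site too, a GAC at position 5690382 of chromosome 5, +53 nt, with 6 of 36 reads unconverted (16.7%, interval 7.87% to 31.9%). It was the only RAC site of the 5 genes inside the window, and its interval lies below that of the LHY site.

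Motif adenosines were present in 3 of the 4 genes without a listed site. CCA1 has 8 RAC adenosines in a 3′ UTR of 198 nt, and LNK1 has 9 in 438 nt. LNK2 has no 3′ UTR on the transcript with its longest coding sequence, and 10 RAC adenosines on the transcript AT3G54500.4, whose 3′ UTR is 306 nt long. RVE2 has no annotated 3′ UTR, so its motifs could not be counted there. Of all nuclear protein-coding genes, 54.6% had at least 1 listed site, and 5 of 9 members did, which is a share near that background.

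A highest level above 50% was reached by 4 of the 5 members with sites, RVE6, RVE4, LHY and RVE8, and by 67.0% of all genes with listed sites. It was reached by 9 of the 14 other clock genes with sites. The members thus stood near the background in this measure also, and a highest level depends on how many sites a gene has. Over sites, the mean level of the members was 30.3% ± 21.5 (SD, 31 sites), against 30.6% ± 25.9 in the other clock genes (SD, 98 sites) and 31.9% ± 26.7 in the whole table (SD over sites). The medians were 21.6%, 21.6% and 21.8% in the same order. Depth was lower in the members, with a median of 69 reads, against 103 reads in the other clock genes and 107 in the whole table.

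RAC motifs held 9 of 31 member sites (29.0%, interval 16.1% to 46.6%), against 41.8% in the other clock genes and 39.3% in the whole table, which lies inside the interval. YAC and RAU motifs held 19 of 31 (61.3%, interval 43.8% to 76.3%), against 49 of 98 in the other clock genes and 49.4% in the whole table. The 6 AAC sites averaged 51.7% and ranged from 7.12% to 85.2%, and 4 of them were above the median of all AAC sites, 40.5%. The 3 GAC sites, 1 each in RVE1, RVE6 and RVE8, had 16.7% to 28.6% and were all below the median of all GAC sites, 40.0%. The 7 UAC sites averaged 35.9%, and 5 of them were above the median of all UAC sites, 21.8%. The 6 AAU sites averaged 13.7%, and 1 of them was above the median of all AAU sites, 17.2%.

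**Figure D3:**
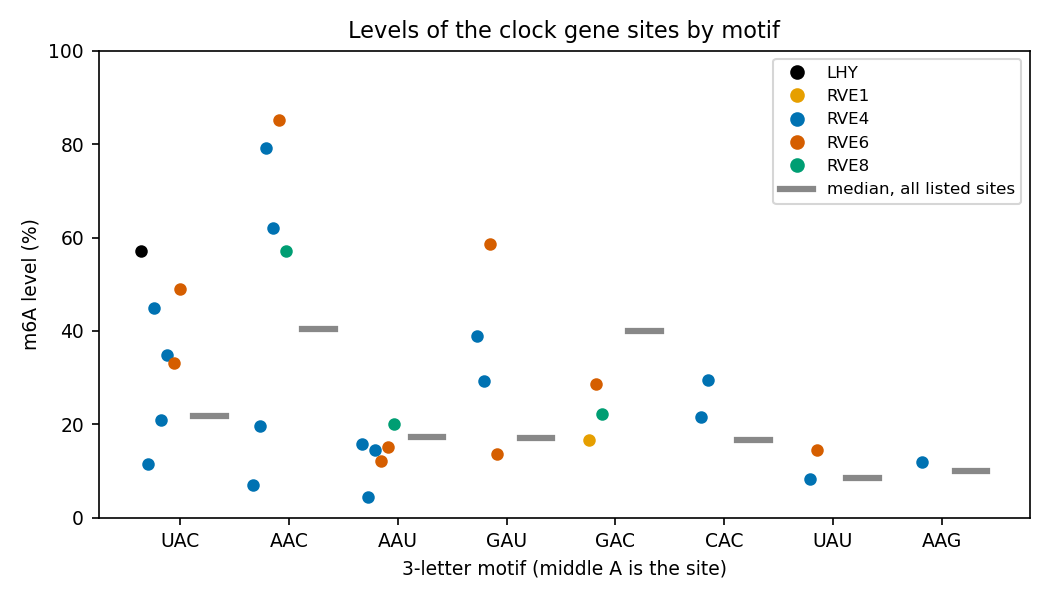
Each point is the m6A level (percent) of 1 member site, grouped by 3-letter motif and coloured by gene, and the grey bar beside each group is the median of all listed sites with that motif. The 3 GAC sites lie under their bar of 40.0%, and 4 of 6 AAC sites lie above theirs of 40.5%.

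The letters 1 step further out were compared next. Set against all listed sites with the same 5 letters, 23 of 31 member sites were above the median of their motif, 13 of 17 in RVE4, 7 of 9 in RVE6 and 2 of 3 in RVE8, and the LHY site also was. With 3 letters it was 17 of 31. The sites named next are among those singled out earlier for a high level, which by itself tends to put them above a median. The listed UAACU sites had 79.1% and 62.1% in RVE4 and 57.1% in RVE8, against a median of 31.4% over 2759 UAACU sites. UAACU adenosines at +109 nt in RVE4, at +151 nt in RVE1 and at +172 nt in LNK1 were not listed. The AAACA site of RVE6 had 85.2%, against a median of 51.6% over 5250 sites. The LHY site had 57.1%, against a median of 18.8% over 1428 CUACU sites, of which 86.0% were lower. These motifs too had unlisted adenosines in the 3′ UTRs. They were AAACA at +23 nt in LHY, +127 nt in RVE4 and +148 nt in RVE8, and CUACU at +212 and +215 nt in LHY and +245 nt in RVE8. Sites of low depth need a higher level to be listed, and the part of depth in these counts was not tested.

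The related activators could be compared at their highest site, each an AAC. The RVE4 site exceeded the RVE8 site by 22.0 points (79.1% against 57.1%, Newcombe 95% interval 4.25 to 38.9, two-sided Fisher's exact test, adjusted p = 0.0181). The RVE6 site exceeded the RVE8 site by 28.0 points (85.2% against 57.1%, interval 9.94 to 44.6, two-sided Fisher's exact test, adjusted p = 0.00549). Of 5 pairs planned, these 2 could be tested, and p-values were adjusted over them. The pairs CCA1 and LHY, RVE1 and RVE2, and LNK1 and LNK2 could not be tested, because 1 or both genes lacked a site. RVE6 minus RVE4, added later and given without a test, was 6.08 points, with an interval of -8.17 to 19.3 that includes 0. These tests compare pooled reads and leave out the spread between plants, and the highest of 17 or 9 sites is set against the highest of 3. Each site was picked as the highest of its gene from the same reads, which the p-values and intervals do not allow for. They therefore cannot decide whether the genes differ, and the differences are given as a description of these sites.

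Ordered by highest level, the genes run RVE6 with 85.2%, RVE4 with 79.1%, LHY and RVE8 with 57.1% each, and RVE1 with 16.7%. RVE6 and RVE4 were not separated by their counting error. The interval of LHY, from 21 reads, overlaps those of RVE6, RVE4 and RVE8, and its differences from them were not tested. The intervals of RVE8 and RVE4 also overlap, while the test of their difference passed the threshold without allowing for the choice of the highest sites. RVE1 stood below the others, and its interval meets none of theirs.

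**Figure D4:**
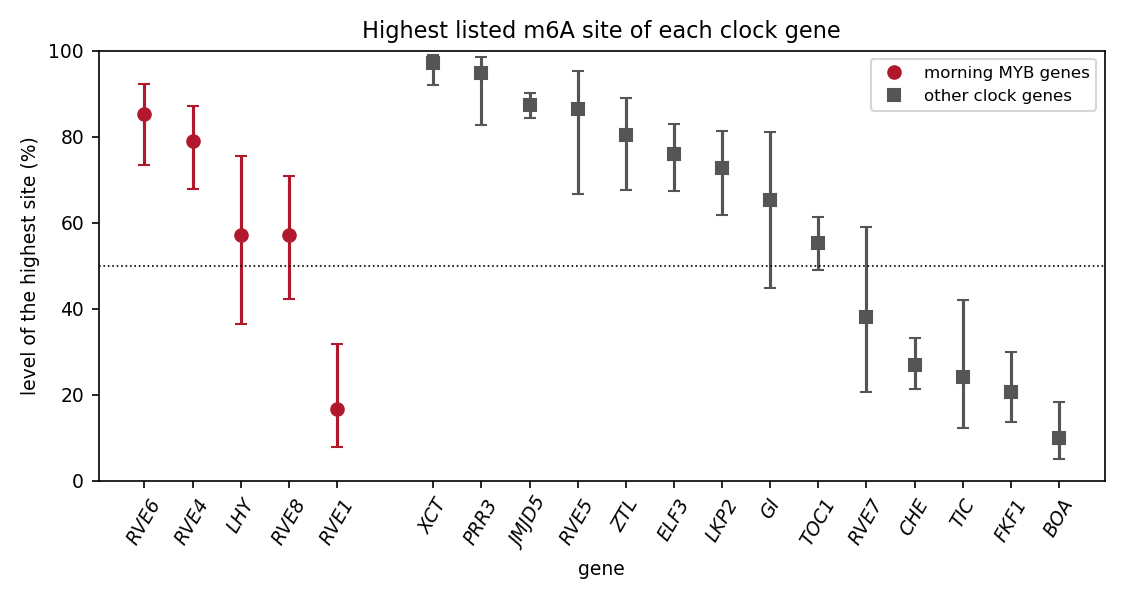
The level (percent) of the highest listed site is shown for the 5 morning MYB genes with sites (circles, left) and the 14 other clock genes with sites (squares, right), with Wilson 95% intervals. The dotted line is at 50%, above which 4 of the 5 and 9 of the 14 lie.

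The nearest relatives behaved unevenly. RVE5, of the same subfamily as RVE4, RVE6 and RVE8, had 10 sites with a mean of 25.1%, 3 of them in the window, and its highest was an AAU at +448 nt with 86.4% (interval 66.7% to 95.3%) over 22 reads. RVE7, a relative of RVE1 and RVE2, had 2 sites, the higher a GAC at +188 nt with 38.1% (20.8% to 59.1%) over 21 reads. RVE3, LNK3 and LNK4 had none, so none of the 4 LNK genes had a listed site, which may mean no methylation or too low a depth. Of the 22 other clock genes examined, 14 had sites, beside 54.6% of all nuclear protein-coding genes. Genes without a listed site are thus common.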

How the data were processed

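CAM-seq was run by the authors on polyadenylated seedling RNA in 3 biological replicates, and the deposited table lists adenosines with 2 raw counts each, depth and unconverted reads. Since its header names no replicate, these counts were taken to be pooled over the replicates, which is an inference. The deposited p-value of each site, from the authors' binomial test, equalled the upper binomial tail at a 1% background within a relative difference of 9.56e-12 over 111716 sites, and the largest was 9.99e-04. Per the labels, reads were trimmed with Cutadapt and mapped with HISAT2 (hisat2-3n) to TAIR10. Versions are not given in the sources used here. The authors also removed reads with many unconverted adenosines.

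Levels were computed as unconverted reads over depth. The smallest level that could be listed was 20.0% at 20 reads, 6.0% at 100 reads and 2.8% at 500 reads. Depth per replicate is unknown, and neighbouring sites share reads. Regions, distances and contexts came from the RefSeq annotation and genome of TAIR10.1, on the transcript with the longest coding sequence. All 31 member contexts matched the genome. Highest sites of related genes were compared with two-sided Fisher's exact tests and Benjamini-Hochberg adjustment. The test and the intervals were checked on simulated pairs of fixed sites, without the choice of a highest site. Alternatives covered depth, p-value, level, weighting, window and transcript. All 9 genes, their highest sites and every site of at least 50% were named by rule. Members, lists and tests were chosen with earlier results of these data known. Python 3.11.15, pandas 2.3.3, SciPy 1.17.1, statsmodels 0.14.6 and matplotlib 3.10.9 were used.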

Additional observations from a re-analysis of the deposited data

Results flagged for a closer look

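Past the annotated end of RVE2, which had no listed site, 2 sites without a gene name lay on the same strand. An AAC site 32 nt past the end, at position 14751312 of chromosome 5, had a level of 8.32% (interval 6.86% to 10.1%) over 1154 reads. A second AAC site 172 nt past the end, at position 14751172, had 8.37% (5.59% to 12.3%) over 263 reads. Both stood out because they carry no gene name and so entered no value of a gene, although they are part of the whole-table values. The only other annotated gene within 1 kb is on the opposite strand, and the RVE2 model has no 3′ UTR. The sites were assigned to no gene here. The whole table held 3762 listed sites without a gene name.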

How the results depend on the processing

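Of 35 recomputed values, 27 stayed close to the reported value, judged for a share by its Wilson 95% interval, for the mean level by the 95% interval of the mean over sites, for a count by a fixed factor and for a difference by direction and threshold. The 27 include the comparisons of the highest RAC site of RVE4, RVE6 and RVE8, which are the sites already compared and so could not move. The number of member sites, 31, was 11 at a depth of at least 100 reads, 18 at a level of at least 20% and 14 without RVE4, an alternative chosen after seeing the data. The mean level, 30.3%, was 20.5% at a depth of at least 100 reads and 42.9% at a level of at least 20%. Of the 4 members with a highest level above 50%, 2 were left at a depth of at least 50 reads and 0 at 100 reads, since every site above 50% had fewer than 100 reads. The share in the stop-codon window was 3.23% with the window ending at +100 nt. Without RVE4 it was 28.6% in place of 12.9%, and this counted as close because the interval of the share is wide. The limits on depth and level remove sites, and the shorter window only moves a boundary. The second-highest sites of RVE4 and RVE6 exceeded that of RVE8 by 39.8 and 36.4 points (two-sided Fisher's exact test, adjusted p = 7.09e-04 and 0.00228), but these are other sites in partly different motifs and do not bear on the differences between the highest AAC sites. Depth minimums of 50 and 100 reads gave no value for them, because RVE8 has no such site. Leaving out replicates was not run. No paired analysis was possible because the counts were read as pooled over the replicates, and there is 1 group.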
